A study of Mus musculus with 9 samples.

Results

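Naive CD4+ T cells stimulated by antibodies to CD3 and CD28 with the solvent DMSO were compared with resting cells over all genes of the deposited count table. The comparison rests on 6 of the 9 libraries of the series, 3 resting and 3 activated, numbered 1, 4 and 5 in each group. All cells were CD4+CD62L+ T cells isolated on magnetic beads from the spleens of C57BL/6 mice. The resting group received no antibody, per its labels. The activated group stood for 15 min with DMSO and then received antibodies against CD3 and CD28 bound to the plate. The remaining 3 libraries came from cells given the pyruvate kinase M2 activator TEPP-46 before the same antibodies. They entered only through the filter on low counts, the scaling and the shared estimate of the spread. The sources used here do not give the length of activation, the number, age or sex of the mice, or whether the resting cells were kept in culture.

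Engagement of the T cell receptor with CD28 signals through calcium and NFAT, through Ras and AP-1, and through NF-kappaB, and takes a naive T cell out of quiescence. The cell grows, takes up more nutrients, acquires the high-affinity receptor for interleukin-2 and enters the cell cycle. It also exchanges the receptors that let it circulate between blood and lymphoid organs for those of an effector cell. Immediate-early genes such as Fos are induced within minutes of a stimulus and their transcripts are short-lived.

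Total counts ran from 3773438 to 5030643 in the 6 libraries. Levels are in CPM, counts per 1000000 on library sizes scaled by TMM, and 3 counts, taken as a floor, were worth 0.601 to 0.789 CPM. The sources name no molecular identifiers, so floors and counting intervals cover counting error only. No label says that replicates came from separate animals; the p-values therefore rest on a spread between libraries that may be technical. The activated libraries were close to each other, with mean correlations of 0.974 to 0.980 with the rest of their group. Resting replicate 1 stood apart, at 0.938 against 0.958 and 0.957 for resting replicates 4 and 5, and values of the 3 libraries are given below in the order 1, 4, 5 so that it can be followed. Values after ± are the SE for a log2 fold change and the SD over 3 libraries for a mean CPM. The median SD of log2 CPM was 0.31 at rest and 0.20 after activation, against 0.52 in the TEPP-46 libraries that share the estimate of the spread. The labelled cell type was checked on its defining genes: Cd3e, a chain of the T cell receptor complex, stood at 397, 928 and 512 CPM at rest and 282, 483 and 420.2 CPM after activation, and Cd4 at 455, 801 and 475 and 477, 736 and 645 CPM. Cd8b1, a chain of the CD8 coreceptor, was at 8.85, 18.7 and 16.9 CPM and 9.81, 9.84 and 7.56 CPM. Markers of plasma cells and granulocyte precursors were present at rest and far lower after activation. B cell markers were lower to a smaller extent (values at the end). The part of these cells in the falls described was not tested.

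Activation changed the transcriptome broadly, with nearly as many rises as falls. With edgeR's quasi-likelihood test and Benjamini-Hochberg adjusted p-values below 0.05, 3914 of 12536 genes tested were called, 31.2% of all. Of these, 1938 rose (15.5%) and 1976 fell (15.8%). These shares are to be set beside the counts of every gene list below. For 7419 genes (59.2%) the 3 libraries of a group all lay above the 3 of the other group, 3656 of them higher and 3763 lower after activation, and 3875 of the calls were among them. The changes were often large. Calls above 8-fold numbered 501 upward and 258 downward, and calls above 32-fold 95 upward and 132 downward. Genes called higher held 6.92% of the reads at rest and 21.8% after activation, whereas genes called lower went from 33.6% to 13.2%. The median log2 fold change over all genes was -0.04. Scaling by total counts alone moved it to 0.07 and made 58.2% of the calls rises in place of 49.5%, so a fold change is relative to the scaling used. A CPM value is relative to its scaled library size, and in bulk samples fewer cells of a type and less RNA per cell cannot be told apart. Fewer calls were made when a library of the compared groups was left out: 1229 to 1286 rises and 1075 to 1190 falls were left without any 1 activated library, and 1227 rises and 1311 falls without resting replicate 4. On the 6 libraries alone, without the TEPP-46 libraries but over the same 12536 genes, 2956 genes rose and 2867 fell. A set of 2003 calls held in all 9 fits that each left out 1 library. Every gene named below as changed is among them unless the libraries that its call depended on are given, and its 3 activated libraries lay all above or all below its 3 resting libraries unless stated. For a gene list, the counts after "or" are those of the fits without a single library, or on the 6 libraries alone, that moved its rises or its falls by more than 1.5 times.

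**Figure D1:**
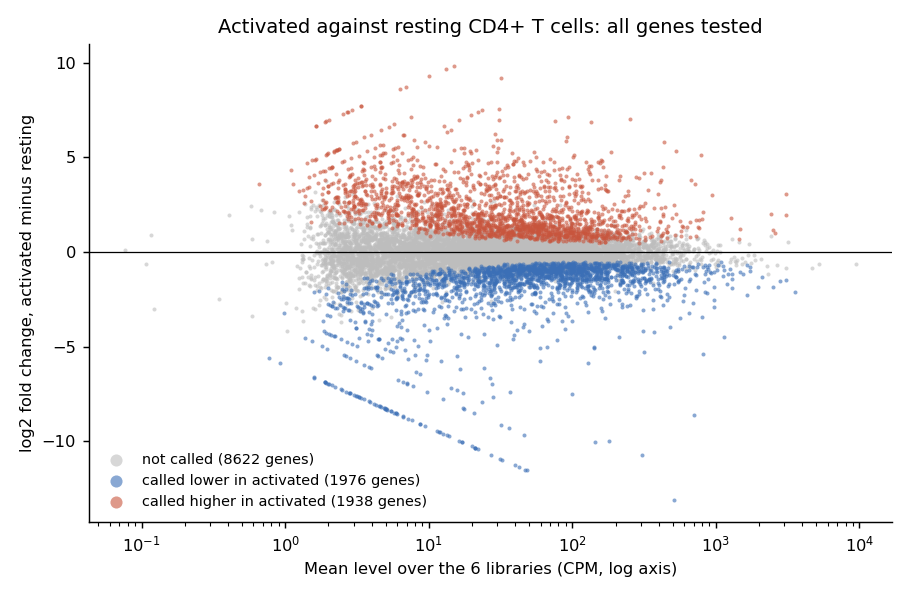
Each point is 1 of the 12536 genes tested. The horizontal axis is the mean level over the 6 libraries in CPM on a log axis, the vertical axis is the log2 fold change of activated minus resting cells, and colour marks the 1938 genes called higher, the 1976 called lower and the 8622 not called. The lowest points include immunoglobulin and granulocyte genes that were at or near 0 counts after activation, such as Mpo and Jchain.

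Among cytokine receptors, both chains of the interleukin-12 receptor and the alpha and beta chains of the interleukin-2 receptor rose, and most of the other receptors that changed fell. Of 30 receptor genes tested (5 more had too few counts), 7 rose and 11 fell, with a median log2 fold change of -0.68, or 7 higher and 7 lower without activated replicate 5. Il12rb2 (ENSMUSG00000018341.12, chromosome 6, 67291318 to 67376188; coordinates here and below are on GRCm38), the signalling chain of the interleukin-12 receptor, stood at 20.1, 4.23 and 2.81 CPM at rest and 268, 507 and 316 CPM after activation (log2 fold change 5.30 ± 0.77, adjusted p = 0.00118). Its partner chain Il12rb1 stood at 2.62, 8.45 and 13.6 CPM at rest and 118, 92.9 and 125 CPM after activation (log2 fold change 3.76 ± 0.61, adjusted p = 0.00195). Both were above every resting library in every activated library, and resting replicate 1 was the highest resting library for Il12rb2 and the lowest for Il12rb1. Il2ra, the alpha chain that makes the interleukin-2 receptor high in affinity, went from 28.6, 65.5 and 35.9 CPM to 1449, 1656 and 1489 CPM (5.15 ± 0.51). Il2rb, the signalling beta chain, stood at 174, 253 and 207 CPM at rest and 620.3, 992 and 899 CPM after activation (log2 fold change 1.99 ± 0.41, adjusted p = 0.00580). The common gamma chain Il2rg moved the other way, from 1009, 1364 and 1558 CPM to 649.8, 653 and 599 CPM (log2 fold change -1.05 ± 0.25, adjusted p = 0.0116), a call lost without activated replicate 5 (highest adjusted p = 0.0550). Per kilobase of exon and 1000000 reads (RPKM), mean levels after activation were 268 for Il2ra, 195 for Il2rb and 266 for Il2rg, against 7.59, 49.2 and 549 at rest. Il15ra (2.48 ± 0.45) and Il10ra (1.93 ± 0.38) rose as well.

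Receptors for homeostatic and regulatory cytokines were among those that fell. Il7r, the receptor chain for the survival cytokine interleukin-7, stood at 670.5, 348 and 397 CPM at rest and 62.8, 104 and 93.02 CPM after activation (log2 fold change -2.44 ± 0.35, adjusted p = 0.00111). Both chains of the interleukin-6 receptor fell: Il6ra stood at 409, 423 and 433 CPM at rest and 61.3, 58.8 and 56.7 CPM after activation (log2 fold change -2.84 ± 0.42, adjusted p = 0.00136), and the shared signalling chain Il6st fell by 1.75 on the log2 scale. The libraries of each group agreed closely for Il6ra and the groups were far apart. Tgfbr2, the ligand-binding receptor of TGF-beta, stood at 523, 468 and 419.9 CPM at rest and 95.2, 101 and 86.5 CPM after activation (log2 fold change -2.32 ± 0.23, adjusted p = 0.000235). Il17ra, a receptor chain for interleukin-17, fell too (-1.75 ± 0.24). Ifngr1, the interferon-gamma receptor chain (chosen after its values were seen), was called lower, but resting replicate 1 was high (1758, 253 and 358 CPM against 103, 212 and 140.4 CPM), and the call was lost without any 1 of activated replicates 1 and 5 and resting replicate 1 (highest adjusted p = 0.0984).

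Genes that limit or follow interleukin-2 and STAT5 signalling rose without a single fall: 11 of 17 were called higher, with a median log2 fold change of 1.33. Socs2, a suppressor of cytokine signalling, stood at 3.42, 8.19 and 10.6 CPM at rest and 148, 181 and 159 CPM after activation (log2 fold change 4.46 ± 0.40, adjusted p = 0.000167). Cish, a related inhibitor that STAT5 induces, stood at 34.6, 24.6 and 20.8 CPM at rest and 338, 297 and 300.0 CPM after activation (log2 fold change 3.54 ± 0.50, adjusted p = 0.00109). Pim2, a kinase that supports growth and survival, stood at 86.3, 120.2 and 86.5 CPM at rest and 467, 475 and 503 CPM after activation (log2 fold change 2.30 ± 0.40, adjusted p = 0.00266). In each of these genes every activated library was far above the resting ones. Their relatives Socs3 and Pim1 did not pass the test.

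The machinery of the T cell receptor itself was mainly lower where it changed. Of 25 genes of the receptor complex and its nearest kinases and adaptors, 7 fell and 1 rose (median -0.59). That is 28% lower and 4% higher, beside 15.8% and 15.5% of all genes. The excess of falls over that share turned on single libraries. The counts were 0 higher and 7 lower without TEPP-46 replicate 5, 0 higher and 3 lower without activated replicates 1 or 5, 0 higher and 4 lower without activated replicate 4 or resting replicate 5, 0 higher and 12 lower without resting replicate 1 and 1 higher and 4 lower without resting replicate 4. Cd247, the zeta chain that carries most of the signalling motifs of the receptor, stood at 602, 451 and 461 CPM at rest and 124, 137 and 135 CPM after activation (log2 fold change -1.94 ± 0.26, adjusted p = 0.000939). Txk, a Tec-family kinase, stood at 147, 258 and 267 CPM at rest and 25.8, 71.8 and 41.6 CPM after activation (log2 fold change -2.27 ± 0.38, adjusted p = 0.00201). Prkcq, the protein kinase C isoform that links the receptor to NF-kappaB, stood at 235, 582 and 550.1 CPM at rest and 129.8, 177 and 114 CPM after activation (log2 fold change -1.70 ± 0.33, adjusted p = 0.00438). Prkcq was lowest of the resting libraries in replicate 1, and all 3 activated libraries were lower still. Cd3e itself missed the threshold (log2 fold change -0.63 ± 0.32, adjusted p = 0.157).

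Inhibitors of receptor signalling changed in both directions. Of 26 negative regulators, 7 fell and 3 rose, beside 15.8% and 15.5% of all genes. The counts were 6 higher and 6 lower on the 6 libraries alone, 6 higher and 7 lower without TEPP-46 replicates 1 or 4 and 1 higher and 6 lower without activated replicate 5 or resting replicate 4. DESeq2 called 6 higher and 7 lower. Dgka, the diacylglycerol kinase that removes the lipid messenger of Ras activation, stood at 1004, 1080.3 and 903 CPM at rest and 149, 272 and 209.7 CPM after activation (log2 fold change -2.25 ± 0.30, adjusted p = 0.000904). Lax1 (-2.16 ± 0.27) and Pag1 (-1.98 ± 0.28), membrane adaptors that restrain proximal signalling, the Ras GTPase-activating protein Rasal3 (-1.56 ± 0.23) and the phosphatase-like Ubash3a (-1.66 ± 0.26) fell too. Spred1, an inhibitor of the Ras to MAP kinase route, went the other way, at 4.02, 3.70 and 4.54 CPM at rest and 24.3, 18.00 and 15.4 CPM after activation (log2 fold change 2.22 ± 0.36, adjusted p = 0.00189). In calcium signalling, Orai2, a subunit of store-operated calcium channels, stood at 167, 201 and 192 CPM at rest and 22.6, 35.04 and 28.5 CPM after activation (log2 fold change -2.70 ± 0.33, adjusted p = 0.000560). The calcium sensor Stim1 (-1.11 ± 0.19) and the calcineurin subunit Ppp3r1 (-1.14 ± 0.23) fell as well. Over the 26 calcium and NFAT genes, 3 rose and 5 fell, close to the share over all genes. The counts were 5 higher and 6 lower on the 6 libraries alone, 2 higher and 3 lower without activated replicate 1, 0 higher and 3 lower without activated replicate 4 or resting replicate 4 and 1 higher and 3 lower without activated replicate 5.

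Transcripts of the classic immediate-early genes Fos, Fosb, Jun and Junb were lower in the activated cells than at rest. Of 28 immediate-early genes, 9 fell and 5 rose (median -0.59), or 8 higher and 11 lower without TEPP-46 replicate 1. Fos (ENSMUSG00000021250.13, chromosome 12, 85473890 to 85477273), which pairs with Jun in AP-1, stood at 89.1, 933 and 822 CPM at rest and 24.5, 13.7 and 9.58 CPM after activation (log2 fold change -5.27 ± 0.92, adjusted p = 0.00258). Jun stood at 411, 1329 and 1336 CPM at rest and 91.98, 104 and 82.2 CPM after activation (log2 fold change -3.47 ± 0.41, adjusted p = 0.000486). Junb, whose transcript lost more CPM than that of any other called gene, stood at 1856, 7088 and 8376 CPM at rest and 1670.2, 1319 and 1087 CPM after activation (log2 fold change -2.09 ± 0.46, adjusted p = 0.00788). In all 3 genes resting replicate 1 was the lowest resting library by a wide margin, and the activated libraries were below it. Each call also held without it: with each library left out in turn the highest adjusted p was 0.0175 for Fos, 0.00503 for Jun and 0.0413 for Junb. Fosb went from 22.5, 42.3 and 32.7 CPM to 0, 0.960 and 0.252 CPM (log2 fold change -6.20 ± 0.69, adjusted p = 0.000362). The phosphatase Dusp1, which switches off MAP kinases, stood at 503, 1203 and 996 CPM at rest and 56.7, 58.6 and 58.5 CPM after activation (log2 fold change -3.96 ± 0.34, adjusted p = 0.000150), and Dusp10 fell with it (-3.09 ± 0.36). The RNA-decay factors Zfp36 (-2.33 ± 0.43) and Zfp36l2 (-2.57 ± 0.35), which bind AU-rich elements in short-lived transcripts, fell too.

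A smaller set of induced genes was higher after activation. Fosl1, a late member of the Fos family, stood at 1.21, 0.264 and 0.216 CPM at rest and 12.3, 7.44 and 7.56 CPM after activation (log2 fold change 3.89 ± 0.63, adjusted p = 0.00184). Dusp4, a nuclear MAP kinase phosphatase, stood at 41.6, 27.5 and 24.9 CPM at rest and 308, 338 and 284 CPM after activation (log2 fold change 3.30 ± 0.66, adjusted p = 0.00500). Nr4a3, an orphan nuclear receptor that receptor signals induce, stood at 19.3, 16.1 and 10.2 CPM at rest and 49.8, 60.01 and 37.1 CPM after activation (log2 fold change 1.69 ± 0.32, adjusted p = 0.00394). Dusp4 and Dusp1 thus moved in opposite directions, with no overlap between groups in either. Egr2 did not pass the test (log2 fold change 1.10 ± 0.54, adjusted p = 0.141).

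NF-kappaB genes were mainly lower where they changed. Of 23 subunits, kinases and inhibitors, 10 fell and 1, Bcl3, rose (median -0.73). That is 43.5% lower and 4.35% higher, beside 15.8% and 15.5% of all genes. The counts were 1 higher and 6 lower without activated replicates 1, 4 or 5 and 3 higher and 8 lower without resting replicate 1. Tnfaip3, which encodes the inhibitor A20, stood at 1269, 1207 and 1025 CPM at rest and 87.3, 155 and 140.2 CPM after activation (log2 fold change -3.19 ± 0.28, adjusted p = 0.000150). Nfkbid, an atypical inhibitor of the nucleus, stood at 154, 129 and 132 CPM at rest and 37.04, 35.5 and 39.3 CPM after activation (log2 fold change -1.89 ± 0.22, adjusted p = 0.000465). The deubiquitinase Cyld (-1.20 ± 0.21), the kinase Ikbkb (-1.11 ± 0.23) and the ubiquitin ligase Birc3 (-1.07 ± 0.24) fell, so both inhibitors and activators of the route were among the falls. Bcl3, a nuclear coactivator of the family, stood at 42.2, 32.5 and 41.5 CPM at rest and 109, 90.97 and 101 CPM after activation (log2 fold change 1.37 ± 0.27, adjusted p = 0.00494).

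**Figure D2:**
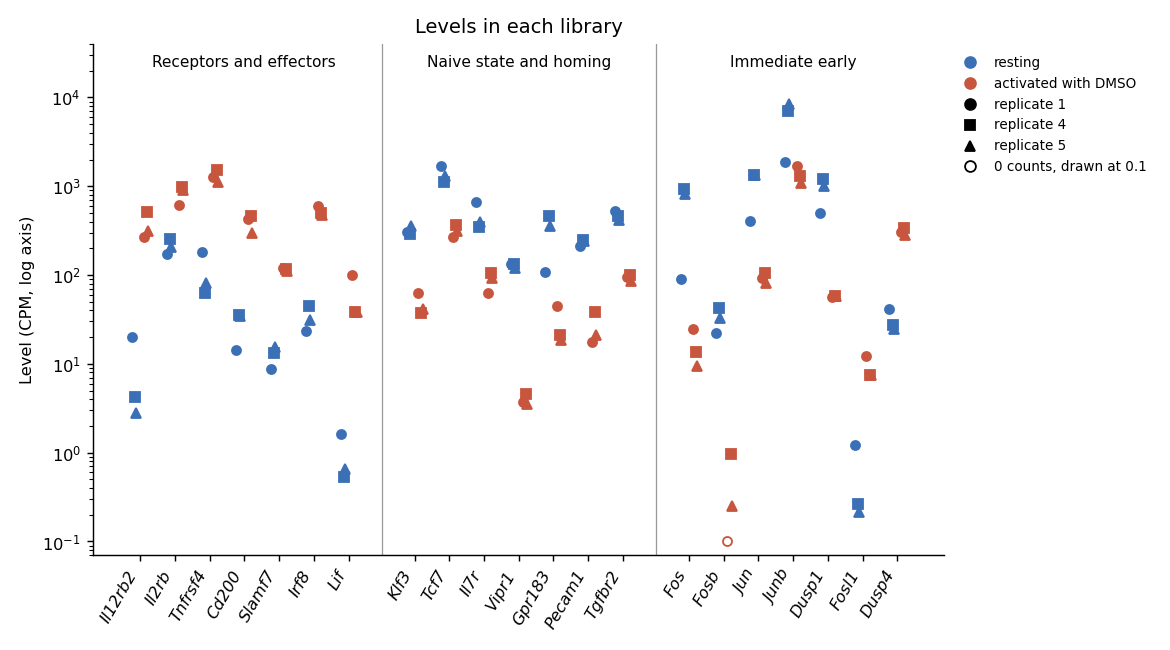
Levels in CPM on a log axis in each of the 3 resting (blue) and 3 activated (red) libraries, with the symbol giving the replicate, for 21 genes in 3 groups. The receptor and effector genes lie higher and the naive-state genes lower after activation in all 3 libraries; among immediate-early genes Fosl1 and Dusp4 lie higher and the others lower, and resting replicate 1 (blue circle) is the lowest resting library for Fos, Jun and Junb. The open circle is a library with 0 counts of Fosb.

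Where they changed, transcription factors of the naive state fell and those of effector differentiation mostly rose. Of 20 naive-state factors, 8 fell and none rose (median -0.63). Klf3, a repressor of the Krüppel-like family, stood at 307, 289 and 360.0 CPM at rest and 62.5, 37.2 and 41.6 CPM after activation (log2 fold change -2.76 ± 0.27, adjusted p = 0.000196). Tcf7, which encodes TCF-1, stood at 1688, 1118 and 1315 CPM at rest and 268, 370.4 and 317 CPM after activation (log2 fold change -2.11 ± 0.32, adjusted p = 0.00155). Its relative Lef1 stood at 1572, 1236 and 1078 CPM at rest and 473, 475 and 483 CPM after activation (log2 fold change -1.44 ± 0.29, adjusted p = 0.00481). Klf2, which maintains quiescence and the receptors for egress, stood at 847, 1573 and 4083 CPM at rest and 39.2, 160.1 and 91.00 CPM after activation (log2 fold change -4.48 ± 0.80, adjusted p = 0.00280); its resting libraries spread widely and all lay above the activated ones. Ets1 fell from 4416, 3325 and 4816 CPM to 1110.2, 1792 and 1412 CPM (-1.54 ± 0.33). In the KLF family as a whole, 5 of 10 members fell, Klf6 (-2.52 ± 0.27) and Klf13 (-1.87 ± 0.43) among them. Klf9 alone rose, at 8.25, 6.60 and 11.7 CPM at rest and 54.5, 36.7 and 41.3 CPM after activation (log2 fold change 2.31 ± 0.32, adjusted p = 0.00101).

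Of 29 effector factors, 12 rose and 3 fell. Batf3, an AP-1 family factor, was at 0, 0 and 0.216 CPM in the resting libraries, a single read in all, and at 78.7, 56.6 and 54.2 CPM after activation, a ratio of 846-fold (95% counting interval 151 to 33457) against that count (adjusted p = 0.000250). Irf8 stood at 23.7, 45.2 and 31.4 CPM at rest and 604, 496 and 471 CPM after activation (log2 fold change 3.97 ± 0.62, adjusted p = 0.00164). Irf4, its relative that receptor signal strength controls, stood at 21.9, 27.2 and 15.1 CPM at rest and 272, 165 and 119 CPM after activation (log2 fold change 3.11 ± 0.61, adjusted p = 0.00465). Tbx21, the T-bet factor of T helper 1 cells, stood at 5.83, 14.3 and 18.2 CPM at rest and 150.1, 80.2 and 79.9 CPM after activation (log2 fold change 3.02 ± 0.62, adjusted p = 0.00545). Runx3, which acts with it, stood at 19.1, 43.3 and 34.4 CPM at rest and 138, 151 and 125 CPM after activation (log2 fold change 2.10 ± 0.30, adjusted p = 0.00108). Zbtb32 (4.76 ± 0.64) and Nfil3 (2.33 ± 0.29) rose too. Against this direction, Bcl6, the factor of follicular helper cells, stood at 11.1, 15.8 and 9.74 CPM at rest and 1.47, 2.88 and 1.76 CPM after activation (log2 fold change -2.56 ± 0.38, adjusted p = 0.00141), and Id2 (-2.09 ± 0.29) and Maf (-2.09 ± 0.50) also fell. Myc was higher at 59.9, 299 and 188 CPM at rest and 977, 523 and 512 CPM after activation (log2 fold change 1.88 ± 0.64, adjusted p = 0.0464), a call lost without any 1 of TEPP-46 replicate 5, activated replicates 1, 4 and 5 and resting replicates 1 and 5 (highest adjusted p = 0.153). Mxi1, a Myc antagonist, rose (log2 fold change 1.68 ± 0.36, adjusted p = 0.00647).

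Genes for egress and homing had the largest share of falls among the process lists with at least 20 genes tested: 14 of 22 fell, against 15.8% of all genes, and 2 rose (median -1.50). The counts were 1 higher and 11 lower without activated replicate 4, 1 higher and 10 lower without activated replicate 5 and 1 higher and 12 lower without resting replicates 4 or 5. S1pr1, the sphingosine 1-phosphate receptor for exit into lymph, fell by 5.37 on the log2 scale, and S1pr4 stood at 251, 257 and 190.2 CPM at rest and 32.4, 63.1 and 44.9 CPM after activation (log2 fold change -2.31 ± 0.29, adjusted p = 0.000644). Gpr183, a receptor for oxysterols that positions cells in lymphoid tissue, stood at 107, 465 and 359 CPM at rest and 44.9, 20.9 and 18.7 CPM after activation (log2 fold change -3.46 ± 0.53, adjusted p = 0.00151). Cxcr3, a receptor for inflammatory chemokines, stood at 43.2, 45.9 and 44.6 CPM at rest and 9.32, 6.00 and 5.55 CPM after activation (log2 fold change -2.67 ± 0.35, adjusted p = 0.000828). Vipr1, the receptor of vasoactive intestinal peptide, was among the 10 largest log2 falls of genes with a mean of at least 100 CPM at rest, immunoglobulin, clone and predicted-gene names left out, at 135, 134 and 121 CPM at rest and 3.68, 4.56 and 3.53 CPM after activation (log2 fold change -5.04 ± 0.55, adjusted p = 0.000323). Ccr7, the lymph node homing receptor, did not pass the test (log2 fold change -0.51 ± 0.39, adjusted p = 0.351). The 2 receptors that rose were Ccr4, at 1.41, 3.70 and 4.54 CPM at rest and 31.9, 27.6 and 25.7 CPM after activation (log2 fold change 3.14 ± 0.49, adjusted p = 0.00164), and Ccr8, from 14.9, 12.7 and 11.7 CPM to 49.8, 84.2 and 72.3 CPM (log2 fold change 2.39 ± 0.64, adjusted p = 0.0183), a call lost without any 1 of activated replicates 4 and 5 and resting replicates 4 and 5 (highest adjusted p = 0.0612).

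Adhesion molecules also fell more often than they rose. Of 30, 10 were lower (33.3%, beside 15.8% of all genes) and 4 higher (13.3%, beside 15.5%). Pecam1, an adhesion receptor of endothelium that naive T cells also carry, stood at 213, 246 and 241 CPM at rest and 17.7, 38.4 and 20.9 CPM after activation (log2 fold change -3.18 ± 0.30, adjusted p = 0.000190). Icam2, a ligand of the integrin LFA-1, stood at 62.96, 75.5 and 69.9 CPM at rest and 6.87, 5.52 and 3.53 CPM after activation (log2 fold change -3.70 ± 0.43, adjusted p = 0.000420). The gut-homing integrin chains Itga4 (-2.01 ± 0.39) and Itgb7 (-1.99 ± 0.40) fell together. Alcam (2.46 ± 0.46), Selp (3.50 ± 0.51) and the Sca-1 gene Ly6a (2.56 ± 0.51) rose. Cd44, a common marker of activated T cells, was called higher by 0.82 ± 0.28 only (87.7, 89.8 and 118 against 218, 139.7 and 164 CPM), and the call was lost without any 1 of TEPP-46 replicate 5, activated replicates 1, 4 and 5 and resting replicates 1, 4 and 5 (highest adjusted p = 0.179).

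Costimulatory receptors and related molecules, the TNF receptor and SLAM families among them, changed in both directions: 11 of 24 rose and 7 fell. The counts were 8 higher and 4 lower without activated replicate 1 or resting replicate 5, 9 higher and 3 lower without activated replicate 4, 9 higher and 4 lower without activated replicate 5 and 7 higher and 4 lower without resting replicate 4. Tnfrsf4, which encodes OX40, stood at 182, 62.1 and 80.5 CPM at rest and 1269.6, 1540.0 and 1122 CPM after activation (log2 fold change 3.60 ± 0.51, adjusted p = 0.00113). Tnfrsf9, the 4-1BB gene, stood at 107, 46.2 and 32.5 CPM at rest and 426, 812 and 584 CPM after activation (log2 fold change 3.29 ± 0.53, adjusted p = 0.00180). Tnfrsf18, the GITR gene, stood at 226, 103 and 134 CPM at rest and 742, 986 and 876 CPM after activation (log2 fold change 2.49 ± 0.42, adjusted p = 0.00225). In all 3 genes resting replicate 1 was the highest resting library. Cd27, the family member that naive cells carry, went the other way, at 266, 374 and 360.4 CPM at rest and 59.6, 141 and 93.3 CPM after activation (log2 fold change -1.77 ± 0.32, adjusted p = 0.00326). Among SLAM receptors, Slamf7 stood at 8.65, 13.2 and 15.6 CPM at rest and 120.0, 118 and 112 CPM after activation (log2 fold change 3.22 ± 0.28, adjusted p = 0.000150). Slamf1 stood at 24.1, 31.2 and 24.2 CPM at rest and 129.5, 102 and 86.5 CPM after activation (log2 fold change 2.00 ± 0.22, adjusted p = 0.000374), whereas Slamf6 fell from 113, 148 and 153 CPM to 48.1, 34.3 and 39.6 CPM (-1.76 ± 0.22). Cd28 itself missed the threshold (log2 fold change -0.37 ± 0.22, adjusted p = 0.226).

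Inhibitory receptors also divided, with 5 higher (29.4%, beside 15.5% of all genes) and 4 lower (23.5%, beside 15.8%) of 17. Lag3, a CD4-like receptor for class II molecules, stood at 8.65, 21.1 and 16.4 CPM at rest and 689.5, 994 and 889.6 CPM after activation (log2 fold change 5.80 ± 0.37, adjusted p = 6.23e-05). Cd200, a ligand that restrains myeloid cells, stood at 14.5, 35.6 and 34.6 CPM at rest and 431, 466 and 294 CPM after activation (log2 fold change 3.82 ± 0.41, adjusted p = 0.000324). Ctla4, the competitor of CD28, stood at 88.5, 60.7 and 53.4 CPM at rest and 148, 325 and 224 CPM after activation (log2 fold change 1.78 ± 0.35, adjusted p = 0.00482). Vsir, which encodes VISTA, a checkpoint of resting T cells, stood at 255, 299 and 275 CPM at rest and 48.6, 59.8 and 40.1 CPM after activation (log2 fold change -2.48 ± 0.28, adjusted p = 0.000386). The groups were clearly apart in all 4 genes, by least in Ctla4.

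Few secreted cytokines were measurable: of 41 cytokine and cytotoxic genes listed, 21 had too few counts to test. Of the 20 tested, 8 rose and 5 fell, or 5 higher and 4 lower without activated replicate 1 or resting replicate 4. Gzmb, the cytotoxic protease granzyme B, stood at 2.82, 5.55 and 3.25 CPM at rest and 411, 619 and 469 CPM after activation (log2 fold change 7.02 ± 0.86, adjusted p = 0.000611). Lta, the lymphotoxin gene, stood at 16.3, 27.2 and 32.2 CPM at rest and 1595, 607 and 866 CPM after activation (log2 fold change 5.34 ± 0.49, adjusted p = 0.000167). Lif, a cytokine of the interleukin-6 family, stood at 1.61, 0.528 and 0.649 CPM at rest and 100.1, 37.9 and 38.6 CPM after activation (log2 fold change 5.89 ± 1.22, adjusted p = 0.00584). Ebi3, a subunit of interleukin-27 and interleukin-35, stood at 2.21, 4.23 and 2.81 CPM at rest and 37.04, 17.8 and 20.7 CPM after activation (log2 fold change 3.03 ± 0.47, adjusted p = 0.00156). Activated replicate 1 was the highest activated library for Lta, Lif and Ebi3 and the lowest for Gzmb. Prf1, the partner of granzyme B in killing, moved against it, at 14.3, 63.4 and 77.4 CPM at rest and 3.43, 6.00 and 3.78 CPM after activation (log2 fold change -3.54 ± 0.58, adjusted p = 0.00201). Prf1 is also among the natural killer markers given at the end, and the part of such cells in its fall was not tested. Il16 (-1.70 ± 0.19) and Ltb (-1.18 ± 0.27) fell. Il4 had 1, 3 and 2 counts at rest and 9, 14 and 27 after activation, Il3 had 0, 0 and 1 against 12, 9 and 6, Il13 had no count at rest and 15, 2 and 3 after activation, and Il17a had none in any of the 6 libraries. Other genes of the list with too few counts to test went the other way. Il10 had 15, 5 and 7 counts at rest and 0, 1 and 0 after activation. Areg had 15, 2 and 7 counts against none, and Gzmk 55, 3 and 4 against 1, 1 and 0.

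Genes of cell division made up the most uniform group of rises. Of 57 mitosis genes, 52 rose and none fell, against 15.5% of all genes that rose, and the median log2 fold change was 3.84. Their summed level was 2542, 1908 and 1894 CPM at rest and 8675, 10176 and 11275 CPM after activation. Aurkb, the kinase of the chromosomal passenger complex, stood at 9.25, 10.04 and 12.3 CPM at rest and 222, 233 and 292 CPM after activation (log2 fold change 4.56 ± 0.65, adjusted p = 0.00114). Mki67, which encodes the proliferation antigen Ki-67, stood at 11.1, 10.8 and 11.5 CPM at rest and 295, 330.3 and 309 CPM after activation (log2 fold change 4.80 ± 0.70, adjusted p = 0.00121). Ccnb1, the cyclin that drives entry into mitosis, stood at 10.9, 12.4 and 10.4 CPM at rest and 236, 281 and 265 CPM after activation (log2 fold change 4.54 ± 0.74, adjusted p = 0.00196). Top2a, the topoisomerase that untangles sister chromatids, stood at 23.5, 54.7 and 31.2 CPM at rest and 694, 830.5 and 953 CPM after activation (log2 fold change 4.51 ± 0.78, adjusted p = 0.00255). All 3 resting libraries were low in each of these genes and the activated libraries agreed closely. Ccnb1 and Top2a, and Cdk1 and Ccnb2 below, were chosen for their roles after their values were seen. Cenpf (4.76 ± 0.67), Kif15 (3.53 ± 0.45) and Ncapg (4.26 ± 0.61) stood, with Aurkb and Mki67, at the lowest adjusted p of the list. Psrc1, a spindle protein outside the list, had the largest log2 rise among called genes with a mean of at least 100 CPM after activation, predicted-gene and clone names left out, at 0.805, 1.06 and 1.95 CPM at rest and 151, 185 and 220.3 CPM after activation (log2 fold change 7.15 ± 0.87, adjusted p = 0.000578).

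Promoters of these mitosis genes are shown because the genes moved together and share short sequences. A gene was counted where any of its windows held the motif. Of 48 mitosis genes tested with a RefSeq promoter window (250 bases before to 50 after the start, assembly GRCm38.p6), 36 (75%) held TTTGAA, the cell cycle homology region, on either strand, against 20.2% of the 27025 genes with a window and 13.5% of tested genes that were not called. The CCAAT box (CCAAT, either strand) was in 34 (70.8%) against 41.1%, and both were in 29 (60.4%) against 8.97%. The matches of the motifs share no base in any of these windows. Of the 36 genes with TTTGAA, 33 rose and 3 were not called, beside 52 of 57 that rose in the whole list. A match is a description of letters, and binding was not measured. Stretches upstream of Cdk1 (chr10:69352913-69353140, minus strand), Ccnb2 (chr9:70421555-70421741, minus strand) and Mki67 (chr7:135716452-135716587, minus strand) read as follows, with both motifs in capitals on either strand. Those of Cdk1 and Ccnb2 end at the base before the start.
Cdk1: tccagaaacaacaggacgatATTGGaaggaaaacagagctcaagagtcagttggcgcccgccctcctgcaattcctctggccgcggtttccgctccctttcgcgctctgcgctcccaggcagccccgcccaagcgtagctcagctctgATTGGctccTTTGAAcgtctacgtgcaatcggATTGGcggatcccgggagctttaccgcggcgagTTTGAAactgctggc
Ccnb2: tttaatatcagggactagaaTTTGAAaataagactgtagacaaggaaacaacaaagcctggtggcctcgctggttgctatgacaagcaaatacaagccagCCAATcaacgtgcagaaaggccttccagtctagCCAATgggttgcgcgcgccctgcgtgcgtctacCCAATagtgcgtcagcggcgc
Mki67: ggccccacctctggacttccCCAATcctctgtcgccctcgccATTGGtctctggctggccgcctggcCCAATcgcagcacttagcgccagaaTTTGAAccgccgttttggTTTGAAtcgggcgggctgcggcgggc
Cdk1 itself went from 2.82, 5.55 and 7.57 CPM to 77.3, 104 and 97.3 CPM (4.13 ± 1.11), a call lost without any 1 of resting replicates 1 and 4 (highest adjusted p = 0.0653), and Ccnb2 from 6.64, 17.96 and 19.04 CPM to 203, 253 and 300.5 CPM (log2 fold change 4.12 ± 0.99, adjusted p = 0.0111).

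Genes of DNA replication and of G1 rose as well. Of 49 DNA replication genes, 26 rose and none fell (median 1.38), and 45 lay higher without overlap, beside 3656 of all 12536 genes. The counts of called genes were 45 higher and 1 lower on the 6 libraries alone, 43 higher and 1 lower without TEPP-46 replicate 1, 31 higher and 1 lower without TEPP-46 replicate 4, 17 higher and 0 lower without activated replicate 1 or resting replicate 1, 16 higher and 0 lower without activated replicates 4 or 5 or resting replicate 4 and 15 higher and 0 lower without resting replicate 5. Clspn, an adaptor of the replication checkpoint, stood at 1.81, 3.96 and 3.46 CPM at rest and 36.3, 42.2 and 43.4 CPM after activation (log2 fold change 3.72 ± 0.59, adjusted p = 0.00169). Mcm10, which helps load the replication fork, stood at 3.02, 5.02 and 8.44 CPM at rest and 65.5, 76.8 and 78.1 CPM after activation (log2 fold change 3.74 ± 0.80, adjusted p = 0.00677). Tk1, the thymidine kinase of S phase, stood at 3.22, 7.13 and 6.92 CPM at rest and 64.5, 57.8 and 68.1 CPM after activation (log2 fold change 3.47 ± 0.63, adjusted p = 0.00325). Mcm6, a subunit of the replicative helicase, was already at 311, 243 and 206 CPM at rest and rose to 614, 656 and 737 CPM (1.40 ± 0.34). The motif TTTGGCGC, a form of the E2F site, was in 6 of 39 of these genes with a window (15.4%), and 2 of the 6 rose. It was in 0.585% of all genes with a window, 1.15% of tested genes not called and 1.58% of those called higher. Mcm6 holds 2 copies (chr1:128359725-128359835, minus strand; capitals).
Mcm6: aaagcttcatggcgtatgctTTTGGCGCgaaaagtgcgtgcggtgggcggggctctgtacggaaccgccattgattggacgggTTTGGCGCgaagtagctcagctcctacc
The other 4 genes of the list with these letters did not pass the test.

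Of 33 genes of G1, 19 rose and 3 fell (median 1.03). The counts were 15 higher and 0 lower without activated replicate 1, 13 higher and 0 lower without activated replicate 4, 12 higher and 1 lower without activated replicate 5, 14 higher and 0 lower without resting replicate 1 and 13 higher and 1 lower without resting replicate 4. Cdk6, the G1 kinase of lymphocytes, stood at 35.00, 46.2 and 62.7 CPM at rest and 467, 453 and 408 CPM after activation (log2 fold change 3.20 ± 0.29, adjusted p = 0.000167). Ccne1, the cyclin of the G1 to S transition, stood at 7.64, 10.6 and 15.4 CPM at rest and 79.96, 65.8 and 68.3 CPM after activation (log2 fold change 2.67 ± 0.40, adjusted p = 0.00145). E2f1, which it helps release, stood at 1.81, 1.58 and 6.06 CPM at rest and 31.6, 49.2 and 32.3 CPM after activation (log2 fold change 3.56 ± 0.69, adjusted p = 0.00435). Inhibitors divided: Cdkn1a, the p21 gene, stood at 27.2, 2.64 and 5.19 CPM at rest and 238, 221 and 281 CPM after activation (log2 fold change 4.37 ± 0.81, adjusted p = 0.00343), with resting replicate 1 the highest resting library, while Cdkn1b, the p27 gene, went from 79.9, 65.2 and 58.6 CPM to 14.2, 23.8 and 26.2 CPM (log2 fold change -1.66 ± 0.44, adjusted p = 0.0173), a call lost without any 1 of activated replicates 1 and 4 and resting replicate 1 (highest adjusted p = 0.0736).

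DNA repair genes followed replication, with 17 of 29 higher and none lower (median 1.61). Neil3, a glycosylase of dividing cells, stood at 0.805, 2.11 and 1.51 CPM at rest and 26.00, 46.6 and 54.4 CPM after activation (log2 fold change 4.84 ± 0.68, adjusted p = 0.00106). Brca2 (2.14 ± 0.35), Fancd2 (3.47 ± 0.59), Bard1 (3.35 ± 0.58) and Blm (3.27 ± 0.57), which act at stalled or broken forks, rose as well. Among 48 chromatin enzymes, 14 rose (29.2%, beside 15.5% of all genes) and 3 fell (6.25%, beside 15.8%). The counts were 19 higher and 9 lower on the 6 libraries alone, 17 higher and 7 lower without TEPP-46 replicate 1, 17 higher and 5 lower without TEPP-46 replicate 4, 9 higher and 1 lower without activated replicate 1, 8 higher and 1 lower without activated replicates 4 or 5 or resting replicate 4 and 10 higher and 1 lower without resting replicates 1 or 5. Ezh2, the methyltransferase of Polycomb complex 2, stood at 24.7, 30.1 and 45.4 CPM at rest and 342, 299 and 311 CPM after activation (log2 fold change 3.25 ± 0.42, adjusted p = 0.000809). Hells, a remodeller that DNA methylation needs, stood at 13.3, 21.1 and 21.6 CPM at rest and 202, 211 and 204 CPM after activation (log2 fold change 3.46 ± 0.45, adjusted p = 0.000812). Of 26 targets of p53, 13 rose and 1 fell (median 0.79). The counts were 15 higher and 3 lower on the 6 libraries alone, 15 higher and 2 lower without TEPP-46 replicates 1 or 4 and 11 higher and 2 lower without resting replicate 5. Zmat3 stood at 12.5, 10.04 and 9.74 CPM at rest and 66.5, 61.7 and 66.3 CPM after activation (log2 fold change 2.59 ± 0.24, adjusted p = 0.000167). The bypass polymerase gene Polk stood at 15.5, 14.3 and 11.2 CPM at rest and 81.2, 73.2 and 77.9 CPM after activation (log2 fold change 2.50 ± 0.27, adjusted p = 0.000292). Sesn1 fell (-1.35 ± 0.23). Trp53 itself did not pass the test (log2 fold change -0.55 ± 0.24, adjusted p = 0.107), though it did on the 6 libraries alone.

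Factors that hold lymphocytes in quiescence were mainly lower where they changed. Of 23, 11 were called lower and 1 higher (median -1.06). The counts were 0 higher and 8 lower without activated replicate 4, 0 higher and 9 lower without activated replicate 5 and 0 higher and 10 lower without resting replicate 4. Btg2, an antiproliferative factor that speeds decay of transcripts, stood at 616, 822 and 888 CPM at rest and 116, 169 and 122 CPM after activation (log2 fold change -2.52 ± 0.33, adjusted p = 0.000870). Its relative Tob1 stood at 373, 156 and 125 CPM at rest and 32.1, 31.2 and 30.5 CPM after activation (log2 fold change -2.80 ± 0.42, adjusted p = 0.00134). Txnip, which restrains uptake of glucose, stood at 336, 289 and 224 CPM at rest and 59.6, 45.8 and 96.8 CPM after activation (log2 fold change -2.07 ± 0.33, adjusted p = 0.00170). Tsc22d3, the glucocorticoid-induced zipper gene, fell from 601, 738 and 814 CPM to 144, 243 and 229.9 CPM (-1.80 ± 0.27). Genes of the BCL2 family rose more often than they fell, 6 against 2 of 17, or 5 higher and 1 lower without activated replicates 1 or 5. Bcl2l1, which encodes BCL-XL, stood at 66.4, 66.02 and 65.5 CPM at rest and 291, 202 and 216 CPM after activation (log2 fold change 1.84 ± 0.32, adjusted p = 0.00264). Bcl2 stood at 48.1, 212 and 250.1 CPM at rest and 493, 882 and 686 CPM after activation (log2 fold change 2.02 ± 0.50, adjusted p = 0.0127). Bcl2l11, the death-promoting BIM gene, stood at 209.6, 91.9 and 76.8 CPM at rest and 24.3, 41.8 and 36.8 CPM after activation (log2 fold change -1.88 ± 0.38, adjusted p = 0.00510), while Bbc3, which encodes the death-promoting PUMA, rose (1.62 ± 0.32).

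Glycolysis and genes of the hypoxia response formed another large group of rises, 20 of 23 (median 2.11) and 18 of 23 (median 2.27), with no member called lower in either. Aldoc, an aldolase isozyme, stood at 2.01, 4.49 and 1.73 CPM at rest and 114, 240.3 and 192 CPM after activation (log2 fold change 6.07 ± 1.16, adjusted p = 0.00405). Tpi1, the triose phosphate isomerase, stood at 25.1, 43.8 and 42.4 CPM at rest and 543, 763 and 687 CPM after activation (log2 fold change 4.16 ± 0.72, adjusted p = 0.00242). Slc16a3, an exporter of lactate, stood at 38.8, 7.13 and 8.22 CPM at rest and 211, 319 and 234 CPM after activation (log2 fold change 3.80 ± 0.65, adjusted p = 0.00240). Of hypoxia genes outside glycolysis, Egln3, a prolyl hydroxylase that HIF-1 induces, stood at 4.43, 1.32 and 3.03 CPM at rest and 166, 204 and 160.3 CPM after activation (log2 fold change 5.87 ± 0.51, adjusted p = 0.000150). The collagen hydroxylase gene P4ha2 stood at 0.201, 1.58 and 1.30 CPM at rest and 60.3, 68.6 and 57.5 CPM after activation (log2 fold change 5.93 ± 0.92, adjusted p = 0.00156). The mitophagy receptor gene Bnip3 stood at 19.1, 9.51 and 12.1 CPM at rest and 135, 252 and 193 CPM after activation (log2 fold change 3.82 ± 0.58, adjusted p = 0.00141). All resting libraries were low in these genes and the groups were well apart. The core ACGTG of the hypoxia response element, on either strand, was in the windows of 14 of 22 glycolysis genes (63.6%) and 13 of 19 hypoxia genes (68.4%), against 21.8% of all genes with a window and 32.6% of all genes called higher.

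Targets of ATF4, the factor of the amino acid and integrated stress response, rose in 20 of 25 cases (median 2.16). Vldlr, a lipoprotein receptor, had no count in any resting library and stood at 26.2, 25.4 and 27.7 CPM after activation, at least 118-fold higher against a floor of 3 counts over the group. Stc2, a secreted glycoprotein, stood at 0, 0.264 and 0.649 CPM at rest and 57.6, 77.8 and 49.2 CPM after activation (log2 fold change 7.53 ± 1.04, adjusted p = 0.000999). Nupr1, a stress-induced chromatin factor, stood at 1.81, 0.264 and 0 CPM at rest and 73.8, 48.96 and 48.4 CPM after activation (log2 fold change 6.23 ± 0.84, adjusted p = 0.000903). Asns, the asparagine synthetase, stood at 17.5, 5.81 and 9.09 CPM at rest and 381, 265 and 229.9 CPM after activation (log2 fold change 4.74 ± 0.97, adjusted p = 0.00536). Pycr1, which makes proline, stood at 3.62, 2.11 and 3.25 CPM at rest and 62.1, 52.1 and 56.97 CPM after activation (log2 fold change 4.22 ± 0.84, adjusted p = 0.00479). Psat1, of serine synthesis, stood at 17.5, 35.4 and 29.2 CPM at rest and 329.7, 275 and 260.4 CPM after activation (log2 fold change 3.40 ± 0.71, adjusted p = 0.00599). The single member that fell was Ppp1r15a, which encodes the phosphatase subunit GADD34, at 836, 1685 and 1859 CPM at rest and 103, 140.4 and 157 CPM after activation (log2 fold change -3.45 ± 0.36, adjusted p = 0.000277). Atf4 itself, chosen after its values were seen, missed the threshold (log2 fold change 0.51 ± 0.30, adjusted p = 0.225) and passed it on the 6 libraries alone.

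The promoters of some of these genes are given to show the elements by which ATF and C/EBP factors bind. The motif TGATGNAA on either strand, the composite element bound by C/EBP and ATF factors, was in 7 of 23 genes with a window (30.4%). Of these genes 6 rose and 1 was not called. The motif was in 4.51% of all genes with a window, 2.59% of tested genes not called and 3.36% of those called higher. The cAMP response element TGACGTCA was in 1 of the 23, Ppp1r15a (4.35%), beside 2.03% of all genes with a window, 3.71% of tested genes not called and 4.48% of those called lower. Stretches for Asns (chr6:7693210-7693252, minus strand), Vldlr (chr19:27216800-27216847, plus strand), Nupr1 (chr7:126625553-126625600, minus strand), Pycr1 (chr11:120643824-120643871, minus strand) and Ppp1r15a (chr7:45526269-45526300, minus strand) show the matches in capitals.
Asns: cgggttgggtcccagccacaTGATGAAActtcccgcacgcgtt
Vldlr: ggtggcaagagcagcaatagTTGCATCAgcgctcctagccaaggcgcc
Nupr1: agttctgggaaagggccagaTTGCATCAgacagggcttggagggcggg
Pycr1: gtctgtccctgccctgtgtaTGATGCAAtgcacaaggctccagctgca
Ppp1r15a: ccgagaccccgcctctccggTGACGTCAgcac
The first 4 carry the composite element and rose, and the last carries the cAMP response element and fell, but 16 of the 23 genes lack the composite element and most of the list rose.

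Neighbouring supply routes rose in part. Of 22 cytosolic aminoacyl-tRNA synthetases and partners, 11 rose and none fell, or 7 higher and 0 lower without activated replicate 1 or resting replicate 4. Yars, which charges tyrosine, stood at 59.3, 58.1 and 56.03 CPM at rest and 241, 174 and 149.7 CPM after activation (log2 fold change 1.70 ± 0.25, adjusted p = 0.00123). Of 18 amino acid transporters, 8 rose. The counts were 10 higher and 1 lower on the 6 libraries alone, 10 higher and 1 lower without TEPP-46 replicate 1, 4 higher and 0 lower without activated replicate 1 or resting replicate 5 and 5 higher and 0 lower without activated replicate 4. Slc7a5, the large neutral amino acid transporter that activated T cells depend on, stood at 15.7, 21.4 and 38.3 CPM at rest and 504, 452 and 264 CPM after activation (log2 fold change 4.01 ± 0.89, adjusted p = 0.00769). Slc7a3, a cationic transporter, stood at 1.01, 0.528 and 1.08 CPM at rest and 51.3, 30.5 and 20.9 CPM after activation (log2 fold change 5.22 ± 0.72, adjusted p = 0.000962). Of 34 genes of serine, folate and nucleotide synthesis, 15 rose and 1 fell. The counts were 11 higher and 0 lower without activated replicates 1 or 5, 9 higher and 0 lower without resting replicate 1 and 12 higher and 0 lower without resting replicate 4. Shmt1, the cytosolic serine hydroxymethyltransferase, stood at 7.64, 19.5 and 19.7 CPM at rest and 79.5, 79.4 and 66.3 CPM after activation (log2 fold change 2.27 ± 0.41, adjusted p = 0.00313). Tfrc, the transferrin receptor for iron uptake, stood at 16.5, 35.9 and 28.8 CPM at rest and 359.6, 204 and 265 CPM after activation (log2 fold change 3.35 ± 0.44, adjusted p = 0.000814).

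Sterol and fatty acid synthesis rose in 21 of 36 genes and fell in 3 (median 1.41). Scd2, a desaturase that makes monounsaturated fatty acids, stood at 31.4, 32.5 and 34.2 CPM at rest and 659.8, 473 and 671 CPM after activation (log2 fold change 4.20 ± 0.41, adjusted p = 0.000214). Scd1 stood at 3.02, 10.3 and 2.16 CPM at rest and 115, 94.6 and 111 CPM after activation (log2 fold change 4.41 ± 0.82, adjusted p = 0.00353). Fads2, a desaturase of polyunsaturated fatty acids, stood at 0.402, 2.11 and 1.95 CPM at rest and 61.3, 57.6 and 55.7 CPM after activation (log2 fold change 5.30 ± 0.97, adjusted p = 0.00335). Of the sterol route, Hmgcs1 stood at 93.5, 83.7 and 96.7 CPM at rest and 506, 517 and 635 CPM after activation (log2 fold change 2.60 ± 0.48, adjusted p = 0.00356). The squalene epoxidase Sqle stood at 25.5, 75.3 and 66.2 CPM at rest and 271, 274 and 297 CPM after activation (log2 fold change 2.33 ± 0.51, adjusted p = 0.00704). Of the 3 falls, Abca1 exports cholesterol and stood at 14.3, 6.60 and 9.09 CPM at rest and 1.47, 1.92 and 2.02 CPM after activation (log2 fold change -2.46 ± 0.42, adjusted p = 0.00243); Abcg1, another exporter, was highest in resting replicate 1 (1084, 313 and 382 CPM against 229, 94.3 and 145 CPM, log2 fold change -1.93 ± 0.49, adjusted p = 0.0140), a call lost without any 1 of activated replicates 4 and 5 (highest adjusted p = 0.0590).

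Lists of general housekeeping function differed in how many calls they held. Of 46 cytosolic ribosomal protein genes, 2 rose, beside 15.5% of all genes, with a median log2 fold change of 0.42. Of these genes 23 lay higher without overlap, beside 3656 of all 12536 genes. The counts of called genes were 20 higher and 1 lower on the 6 libraries alone, 9 higher and 0 lower without TEPP-46 replicate 1, 8 higher and 0 lower without TEPP-46 replicate 4 and 0 higher and 0 lower without activated replicates 1, 4 or 5 or resting replicates 1, 4 or 5, so the count turned on which libraries set the spread. Nuclear-encoded genes of oxidative phosphorylation gave 2 rises of 48 (4.17%, beside 15.5% of all genes), with a median of 0.27. The counts were 13 higher and 0 lower on the 6 libraries alone, 7 higher and 0 lower without TEPP-46 replicates 1 or 4, 1 higher and 0 lower without TEPP-46 replicate 5 and 0 higher and 0 lower without activated replicates 1, 4 or 5 or resting replicates 1, 4 or 5. Ribosome biogenesis gave 4 rises (8.89%, beside 15.5% of all genes) and 3 falls (6.67%, beside 15.8%) of 45, with a median of 0.06. The counts were 10 higher and 5 lower on the 6 libraries alone, 2 higher and 2 lower without activated replicates 1 or 4 or resting replicates 4 or 5, 1 higher and 2 lower without activated replicate 5 and 2 higher and 4 lower without resting replicate 1. Translation factors gave 10 rises (20.8%, beside 15.5% of all genes) and 2 falls (4.17%, beside 15.8%) of 48. The counts were 19 higher and 3 lower on the 6 libraries alone, 6 higher and 2 lower without activated replicate 1 or resting replicate 4, 7 higher and 1 lower without activated replicate 4 or resting replicate 5 and 6 higher and 1 lower without activated replicate 5. Eef2, the elongation factor of translocation, stood at 1468, 1514 and 1556 CPM at rest and 3601, 3528 and 3212 CPM after activation (log2 fold change 1.19 ± 0.23, adjusted p = 0.00428). Rrp1b, a nucleolar protein, rose (1.52 ± 0.36). Of 42 splicing factors 4 rose and 8 fell, near the shares over all genes. The counts were 11 higher and 13 lower on the 6 libraries alone, 8 higher and 12 lower without TEPP-46 replicate 1, 7 higher and 10 lower without TEPP-46 replicate 4, 2 higher and 6 lower without activated replicate 1, 2 higher and 5 lower without activated replicate 5, 2 higher and 8 lower without resting replicate 1 and 2 higher and 7 lower without resting replicate 4. Srsf6, a serine and arginine-rich factor, stood at 236, 286 and 262 CPM at rest and 86.6, 98.9 and 95.03 CPM after activation (log2 fold change -1.48 ± 0.21, adjusted p = 0.00118). Srsf9, its relative, stood at 15.7, 16.4 and 21.6 CPM at rest and 52.98, 48.5 and 41.3 CPM after activation (log2 fold change 1.41 ± 0.29, adjusted p = 0.00597). Of chaperones, Dnajb9, an ERdj4 cochaperone of the endoplasmic reticulum, stood at 117, 199.9 and 186 CPM at rest and 12.8, 9.60 and 7.56 CPM after activation (log2 fold change -4.07 ± 0.35, adjusted p = 0.000150), the steepest fall of its list.

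**Figure D3:**
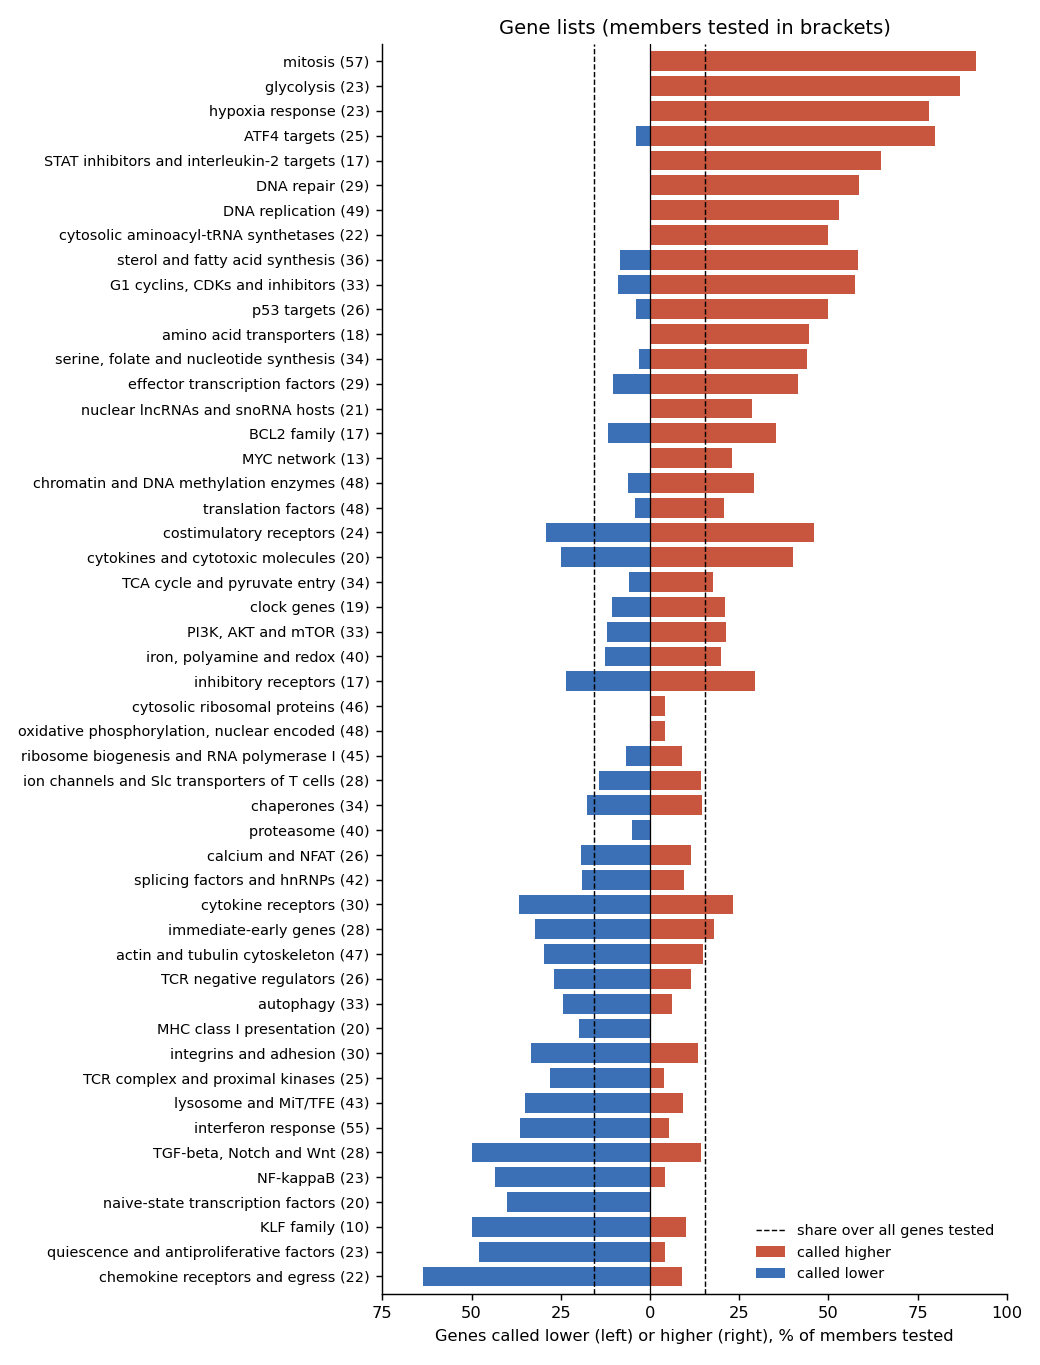
Share of the tested members of each gene list called lower (blue, to the left) and called higher (red, to the right), in percent, for lists with at least 10 genes tested, with the number tested in brackets. The dashed lines mark the shares over all genes, 15.8% lower and 15.5% higher. Mitosis, glycolysis, hypoxia response and ATF4 targets reach furthest to the right, chemokine receptors and egress furthest to the left, and ribosomal proteins, oxidative phosphorylation and the proteasome stay inside both lines.

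**Figure D4:**
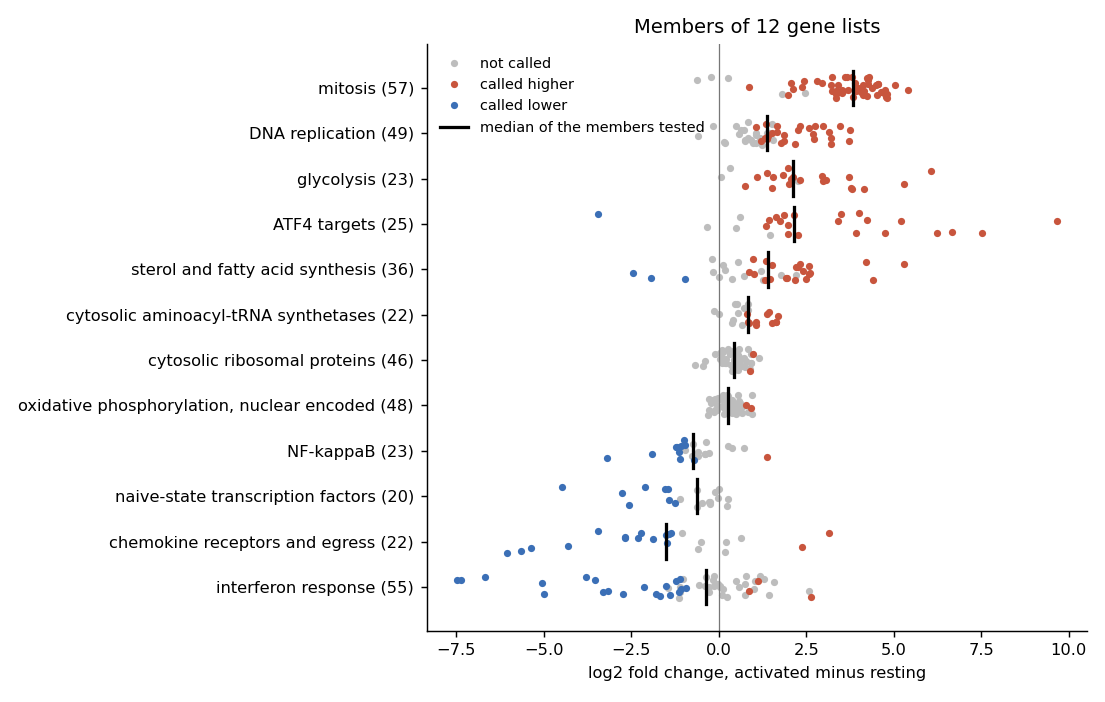
Log2 fold change of each tested member of 12 lists, red where called higher, blue where called lower and grey where not called, with a black bar at the median. Mitosis genes lie together around 3.84, ribosomal protein and oxidative phosphorylation genes lie close to 0, and the interferon response list has both a long tail of falls and members above 0.

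Interferon-stimulated genes fell more often than they rose. Of 55 genes, 20 fell and 3 rose (median -0.35). The counts were 5 higher and 20 lower on the 6 libraries alone, 5 higher and 20 lower without TEPP-46 replicate 1, 1 higher and 18 lower without activated replicate 1 or resting replicate 5, 1 higher and 14 lower without activated replicate 4 and 1 higher and 16 lower without activated replicate 5 or resting replicate 4. The largest falls were in the PYHIN family, clustered on chromosome 1, some of whose proteins sense DNA, and in an IFIT gene. Ifi208 (ENSMUSG00000066677.11, chromosome 1, 173673675 to 173698395) stood at 61.2, 304 and 227 CPM at rest and 0.736, 0.960 and 1.51 CPM after activation (log2 fold change -7.49 ± 0.75, adjusted p = 0.000226). Ifi213 stood at 24.1, 113 and 82.6 CPM at rest and 0.491, 0.240 and 0.504 CPM after activation (log2 fold change -7.37 ± 0.68, adjusted p = 0.000168). Ifi206 stood at 34.00, 190.4 and 124 CPM at rest and 3.68, 3.60 and 3.02 CPM after activation (log2 fold change -5.06 ± 0.57, adjusted p = 0.000393). Ifi209 stood at 207, 338 and 274 CPM at rest and 9.57, 8.40 and 7.56 CPM after activation (log2 fold change -5.00 ± 0.26, adjusted p = 2.32e-05). Mndal (-2.73 ± 0.31), of the same cluster, fell less far. In Ifi208, Ifi213 and Ifi206 resting replicate 1 was far below the other resting libraries, whereas in Ifi209 the resting libraries were closer to each other. The members of this family are close in sequence, so reads may be shared among them and single values are uncertain. Ifit1bl1, for which the same holds with its IFIT relatives, stood at 44.7, 58.1 and 57.1 CPM at rest and 0.245, 0.960 and 0.252 CPM after activation (log2 fold change -6.67 ± 0.47, adjusted p = 7.60e-05).

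Of factors that transmit the interferon signal, Stat2 was called higher (log2 fold change 0.88 ± 0.25, adjusted p = 0.0234), a call lost without any 1 of activated replicates 1, 4 and 5 and resting replicates 4 and 5 (highest adjusted p = 0.0826). Its partner Irf9, which joins it in the complex that type I interferon activates, moved the other way and stood at 152, 189 and 147 CPM at rest and 71.1, 70.6 and 68.8 CPM after activation (log2 fold change -1.21 ± 0.19, adjusted p = 0.00156). Gbp5, a guanylate-binding GTPase, rose, at 11.1, 8.98 and 11.2 CPM at rest and 62.5, 72.5 and 59.5 CPM after activation (log2 fold change 2.63 ± 0.58, adjusted p = 0.00748). Mx1 and Isg15 were not called.

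The interferon-stimulated response element, searched as GAAA, any 2 bases and GAAA on either strand, was in the windows of 27 of 39 tested members (69.2%), against 3.99% of all genes with a window. Of these 27 genes 11 fell, 3 rose and 13 were not called, so the motif was shared by genes that moved differently. Stretches for Ifi208 (chr1:173673587-173673636, plus strand), Ifi213 (chr1:173599316-173599365, minus strand), Mndal (chr1:173880194-173880243, minus strand), Isg15 (chr4:156200855-156200916, minus strand) and Gbp5 (chr3:142496749-142496798, plus strand) are shown with the motif in capitals, Isg15 holding overlapping copies.
Ifi208: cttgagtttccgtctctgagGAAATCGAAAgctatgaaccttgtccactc
Ifi213: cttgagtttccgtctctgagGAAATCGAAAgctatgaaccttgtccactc
Mndal: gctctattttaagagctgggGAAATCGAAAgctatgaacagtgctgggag
Isg15: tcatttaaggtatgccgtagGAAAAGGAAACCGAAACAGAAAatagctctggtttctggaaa
Gbp5: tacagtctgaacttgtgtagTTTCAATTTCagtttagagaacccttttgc
The Ifi208 and Ifi213 stretches are identical and Mndal shares the letters of the match with them; these 3 genes fell, Isg15 was not called and Gbp5 rose.

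Other lymphocyte GTPase and antiproliferative families were mainly lower too. Of 7 Schlafen genes, 4 fell and 2 rose. The counts were 1 higher and 4 lower without TEPP-46 replicate 5 or resting replicates 1, 4 or 5 and 0 higher and 4 lower without activated replicates 1, 4 or 5. Slfn1 stood at 502, 414 and 401 CPM at rest and 69.4, 64.3 and 55.2 CPM after activation (log2 fold change -2.80 ± 0.23, adjusted p = 0.000111). Slfn2, which is needed for T cell quiescence in mice, stood at 499, 299 and 278 CPM at rest and 73.3, 66.7 and 47.1 CPM after activation (log2 fold change -2.52 ± 0.29, adjusted p = 0.000413). Slfn1, Slfn2 and Slfn3 are close paralogs, and their counts are uncertain to that extent. Of 8 GIMAP genes, GTPases of lymphocyte survival that lie side by side on chromosome 6, 6 fell and 1 rose. The counts were 0 higher and 4 lower without activated replicate 4 or resting replicate 4 and 0 higher and 5 lower without activated replicate 5 or resting replicate 1. Gimap8 stood at 164, 231 and 216 CPM at rest and 49.8, 75.6 and 55.7 CPM after activation (log2 fold change -1.75 ± 0.25, adjusted p = 0.00107). Gimap6 stood at 1360.4, 1557 and 1567 CPM at rest and 640.2, 905 and 749 CPM after activation (log2 fold change -0.97 ± 0.22, adjusted p = 0.00892), with the 6 libraries falling into separate groups in both. Cd1d1, which presents lipids, stood at 81.9, 70.5 and 81.6 CPM at rest and 3.68, 5.04 and 4.79 CPM after activation (log2 fold change -4.10 ± 0.51, adjusted p = 0.000644), the largest change among 20 genes of class I and class I-like presentation. Psmb10, a subunit of the immunoproteasome, fell (-1.84 ± 0.28).

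Components of TGF-beta, Notch and Wnt signalling were mainly lower where they changed, 14 of 28 against 4 higher. The counts were 7 higher and 17 lower on the 6 libraries alone, 2 higher and 11 lower without activated replicate 1 or resting replicate 1, 1 higher and 8 lower without activated replicate 4, 2 higher and 9 lower without activated replicate 5 and 2 higher and 12 lower without resting replicate 4. Beside Tgfbr2, the inhibitory Smad7 stood at 136, 110.1 and 130.2 CPM at rest and 26.5, 18.00 and 18.9 CPM after activation (log2 fold change -2.57 ± 0.33, adjusted p = 0.000763). Smad3, which transmits the signal, stood at 75.6, 78.2 and 77.2 CPM at rest and 35.6, 39.1 and 45.6 CPM after activation (log2 fold change -0.94 ± 0.20, adjusted p = 0.00597). Axin2, a feedback inhibitor and target of Wnt signalling, stood at 21.3, 19.5 and 23.4 CPM at rest and 4.17, 5.28 and 2.77 CPM after activation (log2 fold change -2.38 ± 0.51, adjusted p = 0.00657). Dtx1, a regulator of Notch, stood at 12.3, 483 and 327 CPM at rest and 7.36, 6.48 and 10.6 CPM after activation (log2 fold change -5.07 ± 1.08, adjusted p = 0.00648); resting replicate 1 was far below the other resting libraries and only just above the activated ones, and the call was lost with limma-voom (adjusted p = 0.0787). Rbpj, the DNA-binding partner of Notch, rose, at 40.4, 30.4 and 27.3 CPM at rest and 149.6, 163 and 157 CPM after activation (log2 fold change 2.26 ± 0.21, adjusted p = 0.000167).

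Lysosomal genes fell in 15 of 43 cases (34.9%, beside 15.8% of all genes) and rose in 4 (9.30%, beside 15.5%). The counts were 3 higher and 8 lower without activated replicate 1, 2 higher and 7 lower without activated replicate 4, 2 higher and 10 lower without activated replicate 5 and 3 higher and 7 lower without resting replicate 4. Lipa, the acid lipase, stood at 195, 215 and 198 CPM at rest and 73.3, 80.6 and 76.4 CPM after activation (log2 fold change -1.40 ± 0.20, adjusted p = 0.00121). Ctsz, a cathepsin, moved the other way and stood at 64.97, 84.5 and 80.9 CPM at rest and 209, 201 and 201 CPM after activation (log2 fold change 1.41 ± 0.24, adjusted p = 0.00251). Of autophagy genes, Map1lc3b, which coats the autophagosome, stood at 759, 382 and 426 CPM at rest and 171, 175 and 180.5 CPM after activation (log2 fold change -1.57 ± 0.27, adjusted p = 0.00251), and its relative Gabarapl1 moved against it (1.96 ± 0.41). Of the 47 cytoskeletal genes tested, 14 fell (29.8%, beside 15.8% of all genes) and 7 rose (14.9%, beside 15.5%). The counts were 12 higher and 17 lower on the 6 libraries alone, 5 higher and 9 lower without activated replicate 1, 3 higher and 9 lower without activated replicates 4 or 5, 4 higher and 18 lower without resting replicate 1 and 6 higher and 9 lower without resting replicate 4. Tubb6, a tubulin isotype, stood at 2.01, 3.96 and 3.03 CPM at rest and 59.1, 71.3 and 75.6 CPM after activation (log2 fold change 4.52 ± 0.79, adjusted p = 0.00262). Anxa2, an annexin of membranes, stood at 61.4, 55.7 and 43.9 CPM at rest and 379.9, 508 and 418 CPM after activation (log2 fold change 3.02 ± 0.48, adjusted p = 0.00170). Anxa1, its relative, had 14, 13 and 15 counts at rest and none after activation, at least 12.8-fold lower against a floor of 3 counts over the group. Of clock genes, Per3 (2.93 ± 0.41) and Npas2 (3.55 ± 0.73) rose and Arntl (-1.43 ± 0.27) fell.

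In mean CPM, the largest gain was in Aldoa, a glycolytic aldolase, and the largest loss in Junb. Aldoa went from 655 ± 116 to 5456 ± 815 CPM, and Pkm, Eno1, Eef2, Pabpc1, Il2ra, Gapdh, Ldha, Tnfrsf4 and Slc2a3 completed the 10 largest gains. Pabpc1, the poly(A)-binding protein, rose from 1708 ± 174 to 3484 ± 214 CPM, a call lost without any 1 of activated replicates 1 and 5 and resting replicate 5 (highest adjusted p = 0.0661). The 10 largest losses were in Junb, Shisa5, Ddx5, Ets1, H3f3b, Arhgap45, Klf2, mt-Cytb, S1pr1 and Jak1. Ddx5, an RNA helicase, stood at 4207, 4220.5 and 3290.5 CPM at rest and 909, 1147 and 1240.0 CPM after activation (log2 fold change -1.83 ± 0.23, adjusted p = 0.000731). H3f3b, which encodes the replication-independent histone H3.3, stood at 3546, 2593 and 3068 CPM at rest and 939, 779 and 884 CPM after activation (log2 fold change -1.82 ± 0.21, adjusted p = 0.000465). Jak1, the kinase shared by many cytokine receptors, stood at 2375, 1932 and 1882 CPM at rest and 505, 545 and 586 CPM after activation (log2 fold change -1.92 ± 0.25, adjusted p = 0.000819). The mitochondrial transcript mt-Cytb fell (log2 fold change -1.32 ± 0.31, adjusted p = 0.0106), a call lost without activated replicate 4 (highest adjusted p = 0.0518), while mt-Co1 rose from 365 ± 158 to 1224 ± 433 CPM. Among the largest log2 rises, Tgm2, a transglutaminase, stood at 0.603, 0.264 and 2.60 CPM at rest and 100.3, 191 and 156 CPM after activation (log2 fold change 6.94 ± 0.58, adjusted p = 0.000123). Bambi-ps1, a pseudogene, fell from 118 ± 43.6 to 2.12 ± 0.658 CPM and Hsd11b1, which regenerates active glucocorticoid, from 150.1 ± 113 to 5.92 ± 1.69 CPM, with resting replicate 1 far below the other resting libraries at 22.3 CPM.

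Long non-coding RNAs moved both ways. Junos, transcribed antisense to the start of Jun, stood at 69.00, 257 and 223 CPM at rest and 14.7, 18.96 and 10.3 CPM after activation (log2 fold change -3.64 ± 0.46, adjusted p = 0.000690); the sources used here do not say whether counting used the strand, so its reads and those of Jun cannot be told apart where they overlap. Gas5, a host of small nucleolar RNAs, stood at 119.7, 154 and 131 CPM at rest and 557, 687 and 822 CPM after activation (log2 fold change 2.35 ± 0.47, adjusted p = 0.00504), and Zfas1 rose with it (2.47 ± 0.62). Gm26762 (2.14 ± 0.28), Gm17041 (3.47 ± 0.50) and Gm16008 (2.46 ± 0.43) were, with Xist (1.42 ± 0.27), the well-expressed long non-coding RNAs of lowest adjusted p among the rises. Tug1 fell from 501 ± 111 to 177 ± 14.3 CPM, a call lost without activated replicate 4 (highest adjusted p = 0.0507).

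Markers of plasma cells, B cells and granulocyte precursors were present at rest and lower after activation. The 11 plasma cell markers summed to 2871, 1567 and 5209 CPM at rest and 18.6, 15.4 and 18.4 CPM after activation, and 8 of 9 tested fell (median -7.66). Jchain, which joins immunoglobulin multimers, stood at 590.4, 288 and 961 CPM at rest and 0.736, 0 and 0.252 CPM after activation (log2 fold change -10.73 ± 0.72, adjusted p = 6.23e-05). All 75 immunoglobulin variable genes tested and all 11 constant genes fell; variable genes share sequence and single values are uncertain. The 18 B cell markers summed to 2084, 2828 and 2404 CPM and 881, 644 and 802 CPM, with 6 of 16 lower and none higher, or 0 higher and 3 lower without activated replicates 1, 4 or 5 and 1 higher and 3 lower without resting replicate 4; Cd74, a marker that several cell types share, was not called. Neutrophil and precursor markers summed to 115, 204 and 128 CPM at rest and 0.981, 1.20 and 1.26 CPM after activation. Mpo, the myeloperoxidase of precursors, had 414, 445 and 405 counts at rest and 0 in all activated libraries, at least 384-fold lower. The 6 members of this list with too few counts to test were already low at rest. S100a8 had 1, 11 and 1 counts, S100a9 1, 4 and 0, Camp 2, 10 and 2, and Retnlg 1, 3 and 0. Csf3r had 10, 16 and 4 counts, and Ly6g had 0 in all resting libraries. The 20 markers of monocytes, macrophages and dendritic cells summed to 79.3, 128 and 83.5 CPM at rest and 46.1, 29.8 and 32.8 CPM after activation. Markers of CD8 T cells summed to 9.05, 22.2 and 18.2 CPM and 10.1, 10.1 and 8.07 CPM. The T cell markers themselves summed to 6058, 10453 and 9910.2 CPM at rest and 5423, 7283 and 6158 CPM after activation. Whether fewer of these cells or less of their RNA was present after activation cannot be told apart here.

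The summed level of natural killer markers overlapped between the groups. It stood at 38.02, 149 and 184 CPM at rest, with replicate 1 lowest, and 99.8, 134 and 78.9 CPM after activation. Of the 4 markers tested, 2 fell, Prf1 among them, and none rose (median -2.60). The other 7 had too few counts to test. Among them, Tyrobp had 9, 19 and 22 counts at rest, Klra9 2, 4 and 4, Klre1 6, 2 and 2 and Ncr1 1, 3 and 2. These genes had 0 counts in all activated libraries, so the overlap of the sum did not extend to them. Gzma had 4, 9 and 9 counts against 1, 0 and 2, Klra4 0, 1 and 0 against none, and Klra8 none in either group. Regulatory T cell markers summed to 650.4, 718 and 737 CPM and 2850.5, 3756 and 3293 CPM, with Il2ra, Tnfrsf18 and Ctla4 among those that rose, which activated conventional T cells also express, while Foxp3, their defining factor, was not called and the neuropilin gene Nrp1 fell (-1.63 ± 0.36). T cell receptor variable genes were lower where called, 21 of 60 tested beside 15.8% of all genes, with none higher.

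**Figure D5:**
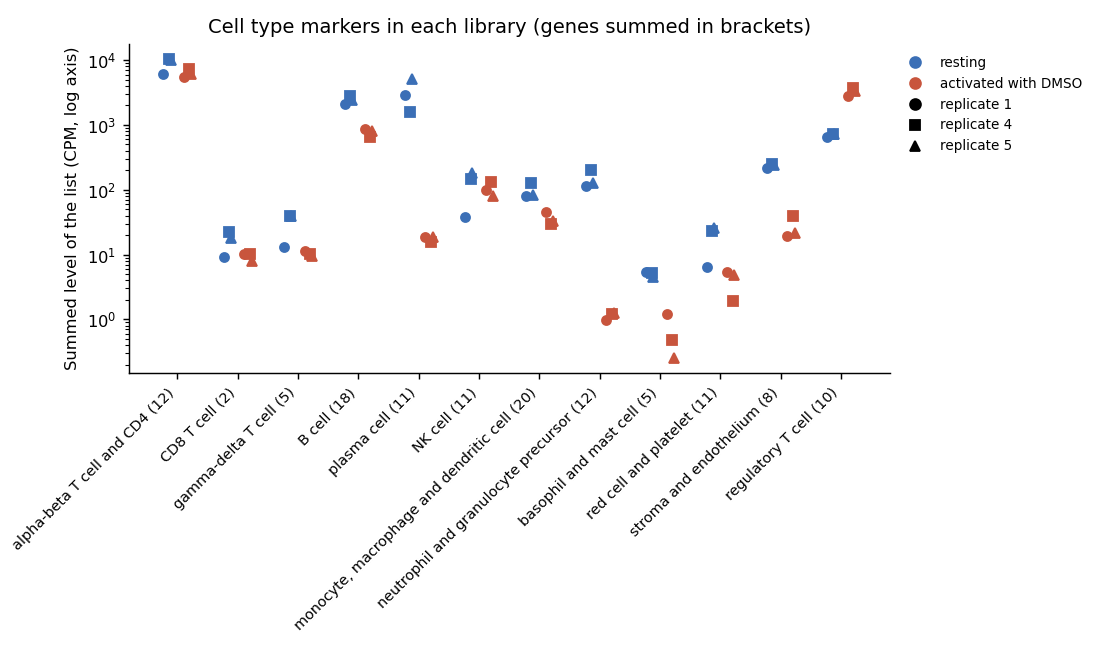
Summed CPM of the markers of 12 cell types in each library on a log axis, with the number of genes summed in brackets, resting libraries in blue, activated libraries in red and the replicate as symbol. Plasma cell, B cell and neutrophil markers lie lower in all 3 activated libraries, alpha-beta T cell, CD8 T cell and natural killer markers overlap between the groups, and regulatory T cell markers lie higher.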

How the data were processed

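RNA-seq libraries of resting and activated CD4+ T cells were analysed from the raw gene counts that the authors deposited, whole numbers per Ensembl gene with no normalization. The submitters' processing notes name the genome GRCm38 and DESeq2; the sources used here do not give the aligner, the counting tool or the strand setting. Of 47937 identifiers, 47310 were paired with symbols and coordinates of GENCODE M21 (GRCm38), 39106 with the same version. Genes were tested with edgeR 4.0.16 (R 4.3.3) by quasi-likelihood on all 9 libraries by group, with TMM scaling, filterByExpr (minimum count 10, minimum total 15) and Benjamini-Hochberg adjustment, called below 0.05. An SE is the log2 fold change divided by the square root of F. CPM use TMM-scaled library sizes. The code was tested on simulated data. Alternatives were DESeq2 1.42.0, limma-voom (limma 3.58.1), other scalings and filters, a replicate block, the 6 libraries alone and each library left out.

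The gene lists and the rule for named genes were chosen with earlier results of these data known. The rule takes up to 5 called members of each list in each direction by adjusted p, up to 2 further members for their role, the 10 largest log2 changes and the 10 largest CPM changes each way, cell type markers, and 5 long non-coding RNAs each way. Promoter windows and their letters are from RefSeq (GRCm38.p6) and were searched on both strands.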

Additional observations from a re-analysis of the deposited data

How the results depend on the processing

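The 1938 rises and 1976 falls became 3603 and 3712 with limma-voom and library quality weights, and the rises 2956 (with 2867 falls) on the 6 libraries alone. Leaving out 1 library at a time gave 1227 to 2496 rises and 1075 to 2538 falls. DESeq2, limma-voom without weights, the other scalings and the other filters gave counts within 1.5 times of these. Of 398 called genes under the naming rule, 362 kept their call in every setting other than the fits without 1 library. In every fit without 1 library 301 kept it, and 0 changed direction in any setting. The replicate block gave 1673 rises and 1666 falls, or 2813 and 2587 on the 6 libraries alone, and 28 of the 398 calls were lost with it. The deviations of same-numbered libraries from their group means correlated at 0.068 for number 1, 0.089 for 4 and -0.026 for 5. The values for 1 and 4 were the highest of all pairs, whereas activated replicate 5 correlated most with resting replicate 4 (0.039). With 3 libraries per group, these values cannot decide whether the numbers pair the libraries. The main fit used no block. At this depth a gene below the floor of 3 counts, 0.601 to 0.789 CPM, cannot be told from an absent one. With the length of activation and the state of the resting cells unknown, the comparison holds for these libraries as labelled.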
